A study of Mus musculus with 6 samples.

Results

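The genes described here encode the machinery of oxidative phosphorylation: the subunits of respiratory complexes I to IV and of ATP synthase (complex V), and cytochrome c. They were taken from the count table by symbol, as protein-coding genes beginning with Nduf (other than Ndufa4l2), Uqcr, Atp5, Cox4 to Cox8, mt-Nd, mt-Co, mt-Cytb or mt-Atp, together with Sdha to Sdhd, Cycs and Cyc1. Of the 55450 genes in the table, 108 met this rule, 95 in the nuclear genome and 13 in the mitochondrial DNA. The names also bring in genes that are no subunits, among them the 8 complex I assembly factors Ndufaf1 to Ndufaf8, and Atp5s, known as factor B. Cox7a2l, a factor in the assembly of respiratory supercomplexes, was counted with complex IV. Atp5o has a second gene identifier, which was at 0 in every library. Ndufa4 was counted with complex IV, where the protein resides, and 15 genes of other types with matching symbols, mostly pseudogenes, were left out. Symbols and coordinates are those of GENCODE release M21, on GRCm38.

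RNA was sequenced from CD31+ brain cells of mouse pups at postnatal day 7, in 3 mutant and 3 control libraries. Mutant pups were Cdh5(PAC)-CreERT2; Rbpjflox/flox, with 2 floxed alleles of Rbpj, the DNA-binding protein of the Notch pathway. Control pups were Cdh5(PAC)-CreERT2; Rbpjflox/WT, with 1 floxed allele, so Cre and a floxed allele were present in both groups. The Cre recombinase is expressed from the Cdh5 promoter, active in endothelial cells, and needs tamoxifen, of which every pup received 100 µg on days 1 and 2. The mice were males and females of a mixed FVB/N and C57BL/6 strain. RNA of many mice was pooled for each group and sequenced in triplicate, and the labels do not say whether the 3 libraries came from separate pools. The p-values therefore measure the spread between libraries, which may be technical.

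Libraries held 75744913 to 81556241 counts in the mutant group and 78577192 to 82092461 in the control group. Low counts came in steps of about 4, so that 4 units of count stand for 1 read pair. On the second principal component, with 18.8% of the variance, mutant library 3 lay apart from the other libraries. Rbpj was at 47.9, 46.8 and 45.2 CPM (counts scaled to library size) in mutant libraries and at 54.3, 54.3 and 53.8 CPM in control libraries, lower in each mutant library. The log2 fold change was -0.21 ± 0.042 (SE; adjusted p = 0.0129 in edgeR's quasi-likelihood test). That call was lost without control library 1 (adjusted p = 0.0571), control library 2 (0.0543) or mutant library 2 (0.051), and the gene count includes exons outside the deleted part. The 10 endothelial markers were present in every library, with a summed level of 12420 to 13440 CPM in mutant libraries and 12150 to 12480 CPM in control libraries. Of the 10, 3 were called higher (30.0%, against 7.56% of all genes tested) and 2 lower (20.0%, against 6.83%).

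Complex I passes electrons from NADH to coenzyme Q, complex II feeds in those of succinate, complex III passes them on to cytochrome c, and complex IV reduces oxygen. Complexes I, III and IV pump protons across the inner mitochondrial membrane, and ATP synthase uses their return flow to make ATP. The mitochondrial DNA encodes part of the core of complexes I and III, the core of complex IV and part of ATP synthase. Its transcripts are copied as long precursors and cut apart. All other subunits are nuclear genes. Some have tissue-specific isoforms, such as the Cox4i2 form of subunit 4 of complex IV, known from lung, from low oxygen and, in mouse brain, from pericytes. Endothelial cells are known to draw much of their ATP from glycolysis.

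Near-identical gene copies bear on the values of several of these genes, and a pair of such sequences is shown first because results below turn on them. The processed pseudogene BC002163 on chromosome 16 is 99.4% identical to Ndufs5 over 319 bases. Bases 51 to 134 of the coding sequence are given for Ndufs5 (chr4:123712710-123718202, minus strand) and for the copy (chr16:42955631-42955949, plus strand), with capitals at the positions that differ.
Ndufs5: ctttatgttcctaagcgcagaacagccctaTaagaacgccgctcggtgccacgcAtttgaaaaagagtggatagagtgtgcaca
BC002163: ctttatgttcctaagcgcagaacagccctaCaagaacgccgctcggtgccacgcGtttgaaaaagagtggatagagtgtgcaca
Counted from the first base of the coding sequence, the differences were T81C and A105G, with the base of Ndufs5 first, and they were the 2 differences in the 319 aligned bases of 321. A read pair that lies within the aligned stretch and outside these positions fits both genes.

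A stretch of mitochondrial DNA has a copy on chromosome 1, annotated as a row of pseudogenes between 24611535 and 24616197. The first 60 bases of mt-Atp6 (chrM:7927-8607, plus strand) and of its copy Gm10925 (chr1:24613974-24614651, minus strand) are given, and they are the same in every base.
mt-Atp6: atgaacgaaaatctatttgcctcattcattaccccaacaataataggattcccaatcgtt
Gm10925: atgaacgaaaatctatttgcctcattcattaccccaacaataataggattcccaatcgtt
Gm10925 was identical to mt-Atp6 over its whole length of 678 bases. In all, 24 nuclear-encoded and 9 mitochondrially encoded genes of the set had a counted copy of at least 95% identity. The copies held at least 5% of the level of the gene itself for 16 of the nuclear-encoded genes and for 7 of the mitochondrial ones. The sources used here do not say how the counting divided reads between a gene and its copy, so results are also given with the counts of copies added, an alternative chosen after the data were seen.

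The nuclear-encoded genes of oxidative phosphorylation differed little between mutant and control libraries. Of the 95, 91 passed the filter on low counts and were tested; Cox7b2, Cox8b, Cox8c and the second Atp5o identifier were not. Genes are called higher or lower here at an adjusted p under 0.05 over all 19549 genes tested, by edgeR's quasi-likelihood test, and 14.4% of all genes were called, 7.56% higher and 6.83% lower. Among the 91 nuclear-encoded genes, 4 were called higher and 4 lower, which is 8.79%. Cox4i2, Ndufs5, Cox6b1 and Cox5a were the genes called higher, and Ndufb5, Ndufaf7, Atp5c1 and Ndufa8 those called lower. The median log2 fold change was 0.03, against -0.01 over all genes tested, and the quartiles lay at -0.09 and 0.09. For 76 of the 91 genes, the 95% interval of the difference stayed within 1.5-fold in either direction, and for 53 it stayed within 1.2-fold. Over all genes tested, 51.2% had an interval within 1.5-fold. The libraries of the groups did not overlap for 33 of the 91 genes, and they did not overlap for 34.1% of all genes tested.

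The summed level of the nuclear-encoded genes was 9274, 9289 and 9089 CPM in mutant libraries and 8995, 9044 and 9346 CPM in control libraries, a ratio of 1.01. The ranges overlap. Leaving out libraries moved the number of nuclear-encoded genes called. Without mutant library 1, 3 genes were called higher and 4 lower. Without mutant library 2 the counts were 2 and 2, and without mutant library 3 they were 5 and 3. Without control library 1 they were 3 and 2, without control library 2 they were 2 and 3, and without control library 3 they were 4 and 1. Cox4i2 and Ndufb5 were called in every one of these fits and under each other alternative tried.

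**Figure D1:**
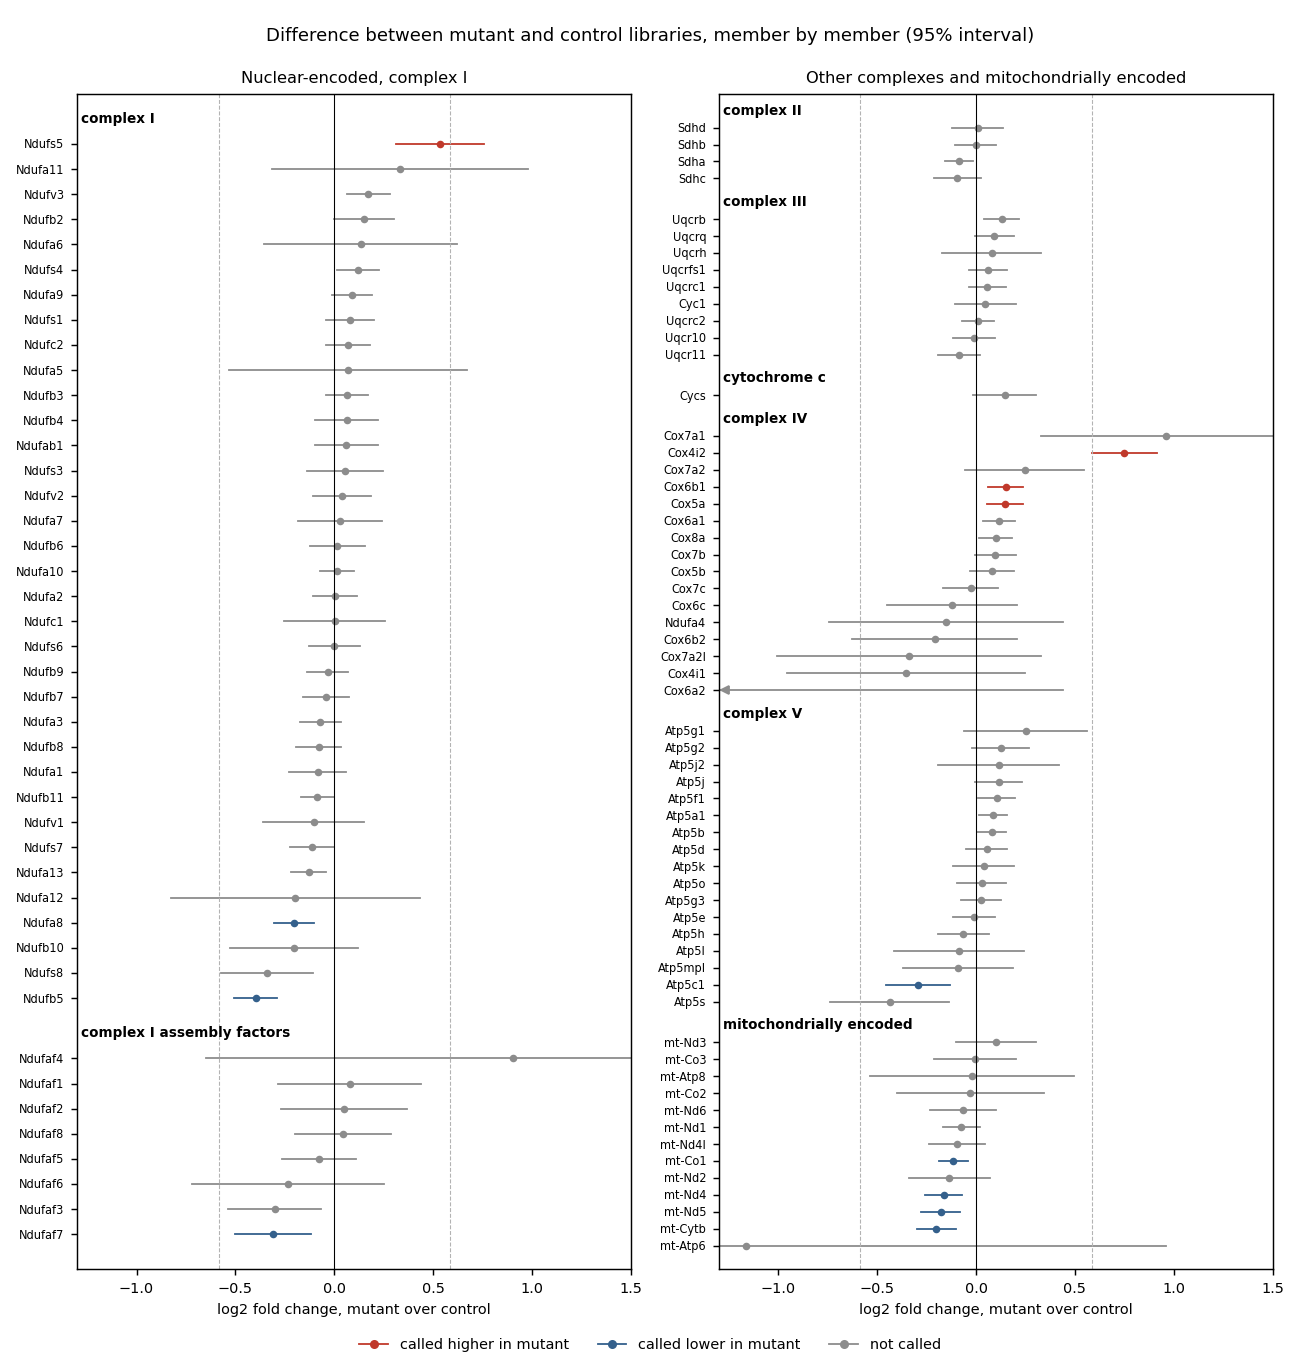
Log2 fold change, mutant over control, with its 95% interval for the genes described, ordered by size within each complex; dashed lines stand at 1.5-fold. Most nuclear-encoded genes lie close to 0 with short intervals, Cox4i2 lies at 0.75 and Ndufb5 at -0.40, and 12 of 13 mitochondrially encoded genes lie left of 0; intervals beyond the axis are clipped, and the arrow marks Cox6a2 at -2.51.

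Cox4i2 showed the largest difference among the called genes of the set. This gene (ENSMUSG00000009876, chromosome 2 from 152754173 to 152765037, plus strand) encodes the alternative form of subunit 4, a nuclear-encoded subunit that contacts the catalytic core of complex IV. Its level was 28.5, 30.2 and 30.1 CPM in mutant libraries and 17.2, 16.6 and 19.03 CPM in control libraries. Every mutant library was above every control library, and the spread within each group was small against the gap. The log2 fold change was 0.75 ± 0.071 (SE, adjusted p = 0.00043 in edgeR's test), or 1.68-fold. Leaving out each library in turn gave values of 0.71 to 0.81, each of them called. In human cells, RBPJ has been reported to bind an oxygen-responsive element in the COX4I2 promoter together with CXXC5 and CHCHD2, which is background and was not measured in these libraries.

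The usual form of the subunit, Cox4i1 (ENSMUSG00000031818, chromosome 8 from 120668222 to 120674207, plus strand), was at 238, 226 and 252 CPM in mutant libraries and at 242, 412 and 261 CPM in control libraries. Control library 2 was far above the other libraries, which lay close together. The log2 fold change of -0.35 ± 0.23 (SE) was not called (adjusted p = 0.421 in edgeR's test), and without control library 2 it was -0.07. Per length of exon, Cox4i2 was at 0.236, 0.262 and 0.235 times Cox4i1 in mutant libraries and at 0.140, 0.0791 and 0.143 times in control libraries. All mutant ratios were above all control ratios, also with control library 2 set aside.

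Cox4i2 is known from pericytes in mouse brain, so markers of mural cells are given beside it. Their summed level was 4216 to 4310 CPM in mutant libraries and 4147 to 4266 CPM in control libraries, and none of the 12 markers was at 0. Of these, 3 were called higher and 6 lower. The pericyte channel genes Abcc9 (log2 fold change 0.52) and Kcnj8 (0.50) and the proteoglycan gene Cspg4 (0.19) were higher. The contractile smooth muscle genes Acta2 (-1.32), Tagln (-1.17), Myh11 (-1.02) and Cnn1 (-1.84) were lower, as were Notch3 (-0.19) and Vtn (-0.18). The part of mural cells in the level of Cox4i2 was not tested, and in bulk RNA a change in the number of cells of a type and in the RNA of each cell cannot be told apart.

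**Figure D2:**
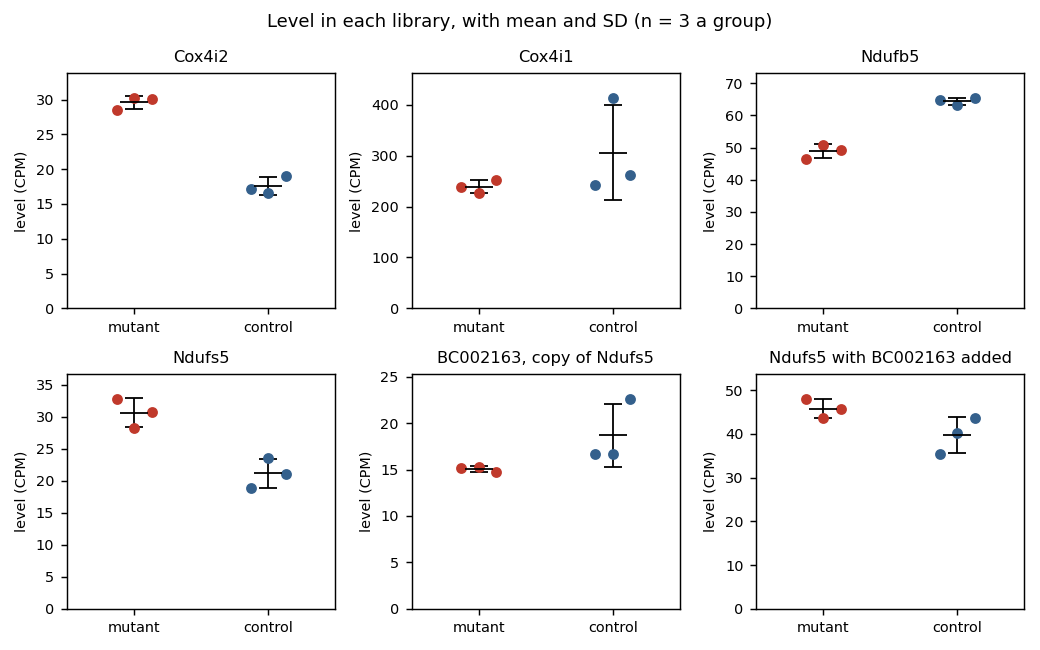
Level (CPM) of Cox4i2, Cox4i1, Ndufb5, Ndufs5, the copy BC002163 and the sum of Ndufs5 and its copy in each library; points are libraries, bars the mean and SD of 3. Cox4i2 and Ndufb5 separate the groups, control library 2 stands out for Cox4i1, and the gap between groups is narrower for the sum than for Ndufs5 alone.

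Complex I has the largest share of the nuclear-encoded genes, with 44 tested, and their median log2 fold change was 0.01. Of these, 1 was called higher and 3 lower, which is 9.09%, against 14.4% of all genes tested. Ndufb5 (ENSMUSG00000027673, chromosome 3 from 32736990 to 32751566, plus strand), an accessory subunit of the membrane arm, was at 46.5, 50.9 and 49.1 CPM in mutant libraries and at 64.7, 63.1 and 65.2 CPM in control libraries. All mutant libraries were below all control libraries. The log2 fold change was -0.40 ± 0.047 (SE, adjusted p = 0.00124 in edgeR's test). Exons of Mrpl47, a mitochondrial ribosomal protein gene on the opposite strand, overlap 12.3% of those of Ndufb5. Mrpl47 was at 14.8, 14.3 and 15.4 CPM in mutant libraries and at 16.0, 14.7 and 14.9 CPM in control libraries and was not called (adjusted p = 0.814).

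Ndufs5 (ENSMUSG00000028648, chromosome 4 from 123712710 to 123718202, minus strand), an accessory subunit with paired cysteines, was at 32.8, 28.3 and 30.8 CPM in mutant libraries and at 18.9, 23.6 and 21.04 CPM in control libraries. The groups did not overlap, and the log2 fold change was 0.53 ± 0.095 (SE, adjusted p = 0.00895 in edgeR's test). The copy BC002163, whose sequence is printed above, was at 15.2, 15.3 and 14.7 CPM in mutant libraries and at 16.7, 16.7 and 22.6 CPM in control libraries. With the counts of the copy added, the level was 48.1, 43.7 and 45.7 CPM in mutant libraries and 35.5, 40.2 and 43.6 CPM in control libraries. The lowest mutant and the highest control library then nearly met, and the log2 fold change of 0.20 ± 0.080 (SE) was no longer called (adjusted p = 0.15). The difference of Ndufs5 therefore held in counts given to that gene and not in counts summed over both genes.

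Ndufa8 (ENSMUSG00000026895, chromosome 2 from 36036326 to 36049406, minus strand), an accessory subunit of the membrane arm, was at 97.6, 97.3 and 92.6 CPM in mutant libraries and at 113, 105 and 113 CPM in control libraries. Each mutant library was below each control library, with a log2 fold change of -0.21 ± 0.044 (SE, adjusted p = 0.0193 in edgeR's test). Ndufaf7 (ENSMUSG00000024082, chromosome 17 from 78937136 to 78948052, plus strand), a methyltransferase that acts in complex I assembly, was at 15.5, 15.2 and 15.4 CPM in mutant libraries and at 19.4, 17.1 and 20.6 CPM in control libraries. Its log2 fold change was -0.31 ± 0.082 (SE, adjusted p = 0.0461 in edgeR's test). The Ndufa8 call was lost when control library 1, control library 3, mutant library 2 or mutant library 3 was left out, while the Ndufaf7 call held in 1 of the 6 such fits, that without control library 2.

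The nuclear-encoded core subunits of complex I carry the NADH-binding site and the chain of iron-sulphur clusters, and none of the 6 described here was called by edgeR's test. At an unadjusted p under 0.05, 0 were higher and 2 lower, limma-voom called none, and DESeq2 called Ndufs8 lower. Ndufs1, the largest, was at 72.4, 74.6 and 81.1 CPM in mutant libraries and at 72.9, 73.6 and 69.4 CPM in control libraries, with a log2 fold change of 0.08. Ndufs8 was at 61.6, 62.8 and 54.6 CPM in mutant libraries and at 68.0, 72.6 and 86.0 CPM in control libraries, a log2 fold change of -0.34 ± 0.098 (SE, adjusted p = 0.068 in edgeR's test). The groups did not overlap, although the difference did not pass the threshold. Without control library 1 it was -0.41 and called (adjusted p = 0.0458). Ndufs3 (0.05), Ndufs7 (-0.11), Ndufv1 (-0.10) and Ndufv2 (0.04) had small log2 fold changes. Of the 29 accessory subunits 1 was called higher and 2 lower (10.3%), and of the 8 assembly factors 1 was called lower (12.5%). The share called over all genes tested was 14.4%.

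The nuclear-encoded genes of complex II, complex III and cytochrome c included no called gene in edgeR's test, in DESeq2 or in limma-voom. At an unadjusted p under 0.05 in edgeR's test, 1 gene of complex II was lower and 1 of complex III higher. Sdha, the flavoprotein of succinate dehydrogenase, was at 230, 223 and 230 CPM in mutant libraries and at 242, 241 and 241 CPM in control libraries. It did not overlap between the groups, and its log2 fold change was -0.08 ± 0.030 (SE, adjusted p = 0.116 in edgeR's test). The iron-sulphur subunit Sdhb (-0.0014) and the membrane anchors Sdhc (-0.09) and Sdhd (0.01) also had log2 fold changes close to 0. All 4 intervals of complex II stayed within 1.2-fold. In complex III, 9 genes had log2 fold changes between -0.09 and 0.13, and 8 of the 9 intervals stayed within 1.2-fold. The Rieske iron-sulphur protein Uqcrfs1 was at 0.06 and cytochrome c1 (Cyc1) at 0.05 on that scale. Cycs, the soluble electron carrier cytochrome c, was at 85.8, 101 and 100.1 CPM in mutant libraries and at 86.5, 83.2 and 90.1 CPM in control libraries, which overlapped, with a log2 fold change of 0.14 ± 0.069 (SE, adjusted p = 0.236 in edgeR's test). Without mutant library 1 the log2 fold change of Cycs was 0.22 and called (adjusted p = 0.0386).

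Complex IV held 3 of the 4 nuclear-encoded genes called higher, among 16 tested, and none called lower. The share called higher was 18.8%, against 7.56% of all genes tested. At an unadjusted p under 0.05 in edgeR's test, 6 were higher and 0 lower. DESeq2 called 4 higher and limma-voom 2, and neither called any lower. Both had 1 gene lower at an unadjusted p under 0.05. Beside Cox4i2, the genes called higher by edgeR's test were Cox5a, whose product lies on the matrix side, and Cox6b1, whose product joins the monomers of the enzyme. Cox5a (ENSMUSG00000000088, chromosome 9 from 57521274 to 57532426, plus strand) was at 98.8, 100.1 and 96.3 CPM in mutant libraries and at 92.0, 86.4 and 88.0 CPM in control libraries. Cox6b1 (ENSMUSG00000036751, chromosome 7 from 30616861 to 30626151, minus strand) was at 222, 221 and 211 CPM in mutant libraries and at 193, 193 and 203 CPM in control libraries. In both genes the groups did not overlap, and the log2 fold change was 0.15 ± 0.039 (SE, adjusted p = 0.0452) for Cox5a and 0.15 ± 0.038 (SE, adjusted p = 0.0365) for Cox6b1 in edgeR's test. These calls were near the threshold: that of Cox5a was lost when any 1 library was left out, and that of Cox6b1 when control library 1, control library 2, mutant library 1 or mutant library 2 was left out.

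The other isoform sets of complex IV were carried by their widely expressed forms. Cox6a1 was at 244, 250.2 and 236 CPM in mutant libraries and at 228, 225 and 221 CPM in control libraries, a log2 fold change of 0.12 ± 0.034 (SE, adjusted p = 0.0628 in edgeR's test). Without mutant library 3 it was 0.14 and called (adjusted p = 0.03). Its heart and muscle counterpart Cox6a2 was at 0.182, 0 and 0 CPM in mutant libraries and at 0.379, 0.526 and 0.183 CPM in control libraries. Cox6a2 was not called (adjusted p = 0.259 in edgeR's test) except without mutant library 1 (adjusted p = 0.0283), where both remaining mutant libraries were at 0. Cox6b2, known from testis, was at 8.45, 5.38 and 6.73 CPM in mutant libraries and at 6.997, 7.81 and 8.96 CPM in control libraries, and per length this was 0.0155 to 0.0243 times Cox6b1 in mutant libraries and 0.0231 to 0.0282 times in control libraries. The muscle form Cox7a1 was at 0.802, 0.888 and 1.08 CPM in mutant libraries and at 0.442, 0.440 and 0.537 CPM in control libraries, with groups apart and a log2 fold change of 0.96 ± 0.27 (SE, adjusted p = 0.0557 in edgeR's test). DESeq2 called Cox7a1 higher (adjusted p = 0.0291). Its liver form Cox7a2 was at 74.8, 76.8 and 71.5 CPM in mutant libraries and at 68.7, 68.5 and 50.8 CPM in control libraries, a log2 fold change of 0.25 (adjusted p = 0.272). Cox8a had a log2 fold change of 0.10 (adjusted p = 0.119) and Cox7b one of 0.10 (adjusted p = 0.217). Cox8b was at 0 in mutant libraries and at 0.0505, 0.0978 and 0.0976 CPM in control libraries, and Cox7b2 and Cox8c were at 0 in every library.

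ATP synthase had 17 genes tested, of which 1 was called lower (5.88%, against 6.83% of all genes tested). Atp5c1 (ENSMUSG00000025781, chromosome 2 from 10056016 to 10080510, minus strand) encodes the gamma subunit, the rotating shaft in the catalytic head. It was at 195, 165 and 196 CPM in mutant libraries and at 226, 220 and 235 CPM in control libraries. The groups did not overlap, and mutant library 2 was the lowest. The log2 fold change was -0.29 ± 0.068 (SE, adjusted p = 0.029 in edgeR's test), and the call was lost without any 1 of the control libraries.

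The alpha and beta subunits form the catalytic sites around this shaft. Atp5a1 (alpha) was at 850, 839 and 839 CPM in mutant libraries and at 775, 796 and 813 CPM in control libraries, and Atp5b (beta) at 994, 987 and 967 CPM in mutant libraries and at 917, 917 and 955 CPM in control libraries. Both were higher in each mutant library without being called, with log2 fold changes of 0.08 ± 0.030 (SE, adjusted p = 0.117) and 0.08 ± 0.031 (SE, adjusted p = 0.146) in edgeR's test. The gamma subunit was called lower and these partners were not called, while the difference between these genes was not tested. Subunit c, the ring in the membrane, is made from 3 genes with the same mature protein. Atp5g1 had a log2 fold change of 0.25 (adjusted p = 0.281), which was 0.38 and called without control library 3 (adjusted p = 0.0481 in edgeR's test). Atp5g2 had one of 0.12 (adjusted p = 0.253 in edgeR's test) and Atp5g3 one of 0.03 (adjusted p = 0.762). Per length, Atp5g1 was at 0.119 to 0.156 times Atp5g2 in mutant libraries and at 0.108 to 0.130 times in control libraries. Atp5s was at 3.78, 3.83 and 4.21 CPM in mutant libraries and at 4.79, 5.17 and 6.04 CPM in control libraries, a log2 fold change of -0.44 ± 0.13 (SE, adjusted p = 0.0652 in edgeR's test). DESeq2 called Atp5s lower (adjusted p = 0.0367).

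Of the 13 mitochondrially encoded genes, 4 were called lower in mutant libraries (30.8%, against 6.83% of all genes) and 0 higher by edgeR's test. An unadjusted p under 0.05 gave the same counts of 0 and 4, and DESeq2 called 3 lower and limma-voom 4. The median log2 fold change was -0.10, and 12 of the 13 values were negative. Without mutant library 1, mutant library 2 or control library 1, 0 of them were called, as set out with the single genes. These genes share long precursor transcripts, and neighbours overlap, mt-Atp8 and mt-Atp6 by 43 bases and mt-Nd4l and mt-Nd4 by 7, so their values are not independent. For 12 of the 13 genes the 95% interval stayed within 1.5-fold. mt-Cytb, the cytochrome b of complex III, was at 3679, 3662 and 3752 CPM in mutant libraries and at 4238, 4016 and 4488 CPM in control libraries. Its log2 fold change was -0.20 ± 0.043 (SE, adjusted p = 0.0195 in edgeR's test). Counts of the other 3 called genes also did not overlap between groups. Over all genes tested, the groups did not overlap for 34.1%, so this alone does not set these genes apart. mt-Co1, the catalytic subunit of complex IV, was at 10875, 10981 and 10514 CPM in mutant libraries and at 11697, 11404 and 11982 CPM in control libraries.

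mt-Nd4 and mt-Nd5, proton-pumping subunits of complex I, were the remaining genes called lower. mt-Nd4 was at 2169, 2271 and 2139 CPM in mutant libraries and at 2461, 2355 and 2555 CPM in control libraries, and mt-Nd5 at 1842, 1787 and 1840 CPM in mutant libraries and at 2091, 1944 and 2158 CPM in control libraries. The log2 fold changes were -0.12 ± 0.031 (SE, adjusted p = 0.0489) for mt-Co1, -0.16 ± 0.040 (SE, adjusted p = 0.0333) for mt-Nd4 and -0.18 ± 0.042 (SE, adjusted p = 0.0294) for mt-Nd5 in edgeR's test. None of the mitochondrial calls remained without mutant library 1, mutant library 2 or control library 1. By edgeR's test, the number called lower was 1 without mutant library 3, 3 without control library 2 and 1 without control library 3.

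The other mitochondrial genes were not called. Among the complex I subunits, the log2 fold change was -0.07 for mt-Nd1, -0.13 for mt-Nd2, 0.10 for mt-Nd3, -0.10 for mt-Nd4l and -0.06 for mt-Nd6, the single one of these genes on the minus strand. mt-Co2 was at -0.03 and mt-Co3 at -0.0045 on that scale, and mt-Atp8 at -0.02. mt-Atp6, a membrane subunit of ATP synthase, was at 681, 835 and 694 CPM in mutant libraries and at 710, 684 and 3546 CPM in control libraries. Control library 3 alone was high, 5.18 times the lowest control library, and the log2 fold change of -1.16 ± 0.79 (SE, adjusted p = 0.448) became 0.08 without it.

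**Figure D3:**
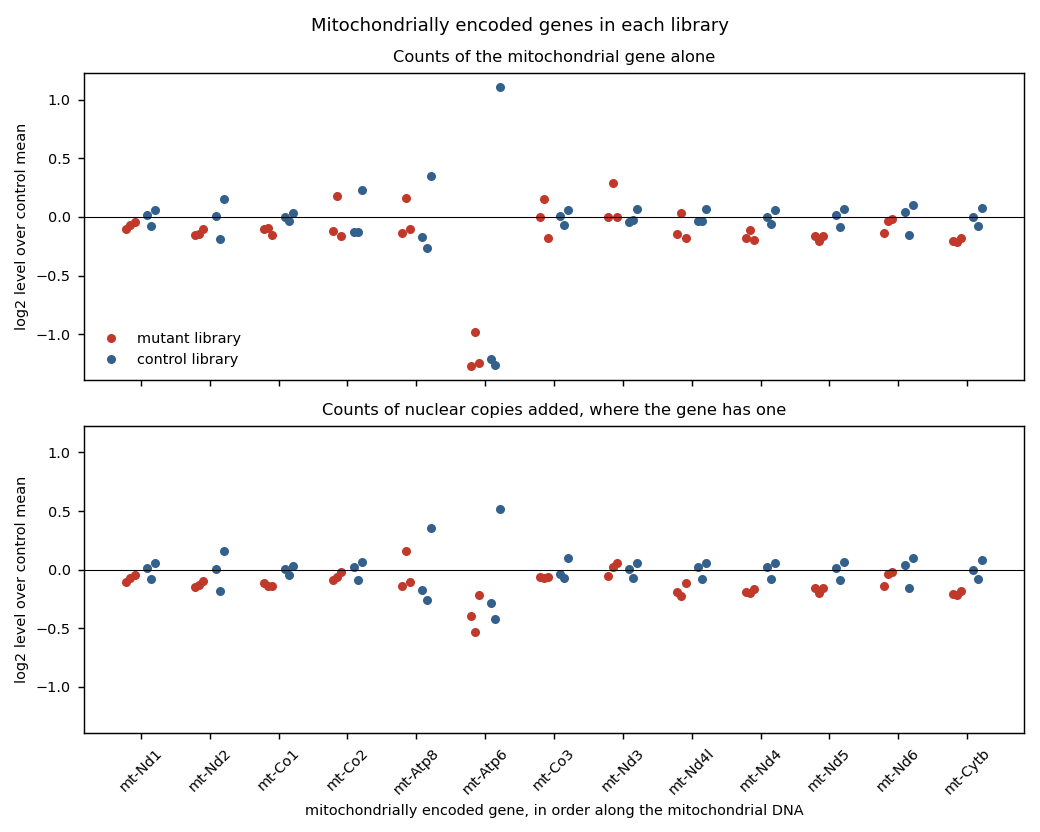
Log2 level of each mitochondrially encoded gene in each library relative to the mean of the control libraries, for counts of the gene alone (top) and with counts of its near-identical nuclear copies added (bottom). With the copies added, mutant libraries lie closer together for mt-Co2, mt-Co3 and mt-Nd4l and control libraries do so for mt-Co2 but not for mt-Co3 or mt-Nd4l, while control library 3 stays high for mt-Atp6.

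The counts held by nuclear copies differed widely between genes. Gm10925 held 193% of the level of mt-Atp6, with 2313, 1886 and 2693 CPM in mutant libraries and 2549, 2264 and 2109 CPM in control libraries. The copies of mt-Co2, mt-Co3, mt-Nd3 and mt-Nd4l held 77.8% to 86.4% of the level of their gene, that of mt-Nd4 held 30.2% and the larger one of mt-Co1 19.8%. Those of mt-Nd2 (0.329%) and mt-Nd5 (0.0116%) held little. With the copies added, 5 genes were called lower, namely the 4 above and mt-Nd4l. mt-Nd4l was then at 646, 629 and 679 CPM in mutant libraries and at 746, 698 and 765 CPM in control libraries, a log2 fold change of -0.18 ± 0.046 (SE, adjusted p = 0.0417 in edgeR's test). mt-Atp6 with its copy was at 2998, 2726 and 3400 CPM in mutant libraries and at 3247, 2943 and 5645 CPM in control libraries, so control library 3 remained apart.

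The summed level of the 13 genes was 30964, 32543 and 30470 CPM in mutant libraries and 33434, 31942 and 38451 CPM in control libraries, a ratio of 0.905. Without mt-Atp6 the sums were 30283, 31708 and 29776 CPM in mutant libraries and 32724, 31257 and 34905 CPM in control libraries, a ratio of 0.928. Mutant library 2 lay above control library 2 in both sums, so the groups overlapped in counts of the genes alone. Counts of the nuclear copies are left out of both sums and of the shares below, and no sum was taken with them. Mutant library 2 was the lowest library for the copies Gm10925 (1886 CPM), Gm28661 (1663 CPM), Gm28437 (1916 CPM) and Gm29216 (1786 CPM). The 13 genes took 2.98% to 3.27% of all counts in mutant libraries and 3.21% to 3.84% in control libraries, against 0.889% to 0.935% in mutant libraries and 0.906% to 0.933% in control libraries for the 95 nuclear-encoded genes. The libraries were made from poly(A) RNA, so these shares also follow the tails of the mitochondrial transcripts, which were not measured. For 5 other cell types, the summed level of the markers was lower in mutant libraries, and the groups did not overlap. Red cell markers summed to 4664 to 4960 CPM in mutant libraries and to 6972 to 7177 CPM in control libraries, with 5 of 7 called lower. Microglia and macrophage markers summed to 1345 to 1383 CPM in mutant libraries and to 1719 to 1758 CPM in control libraries, with 7 of 12 called lower. Choroid plexus and ependymal markers summed to 3440 to 4473 CPM in mutant libraries and to 5079 to 5527 CPM in control libraries, with 1 of 6 called lower. The sums were 562 to 747 CPM in mutant libraries and 847 to 961 CPM in control libraries for fibroblast markers (2 of 8 called lower), and 261 to 388 CPM in mutant libraries and 480 to 532 CPM in control libraries for astrocyte markers (1 of 8 called lower). None of the markers of these 5 lists was at 0 in all libraries. For neuron and oligodendrocyte lineage markers the sums overlapped between groups. Neuron markers summed to 173.8 to 205.2 CPM in mutant libraries and to 174.7 to 190.5 CPM in control libraries (1 of 10 called lower). Oligodendrocyte lineage markers summed to 78.65 to 97.73 CPM in mutant libraries and to 73.77 to 79.5 CPM in control libraries (2 of 8 called higher, 1 lower). Beside these counts for the marker lists, 7.56% of all genes tested were called higher and 6.83% lower. The part of other cell types in the mitochondrial values was not tested.

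Per length of exon, mitochondrial genes stood far above nuclear ones. mt-Co1 averaged 7277 CPM per kb over the 6 libraries, mt-Co2 4152 and mt-Atp8 3836, and mt-Nd3 was lowest with 449. Nuclear copies, which held 193% of the level of mt-Atp6 and 77.8% of that of mt-Co2, are not included. This order therefore holds for counts of the genes alone. The highest nuclear-encoded genes were Cox6a1 with 334 CPM per kb, Cox6b1 with 293, Atp5a1 with 261, Atp5b with 226 and Cox8a with 217. In complex I the highest were Ndufb11 (122 CPM per kb), Ndufa8 (120) and Ndufa1 (99.0), and the lowest were the assembly factors Ndufaf4 (3.33), Ndufaf2 (2.96) and Ndufaf6 (2.49). In complex III, Uqcr10 was highest (146 CPM per kb) and Uqcrq lowest (50.5), and in complex II Sdhd was highest (104) and Sdhc lowest (37.6). Cycs averaged 26.8 CPM per kb. The length is that of all annotated exons of a gene together, so genes with long, rarely used exons come out low.

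**Figure D4:**
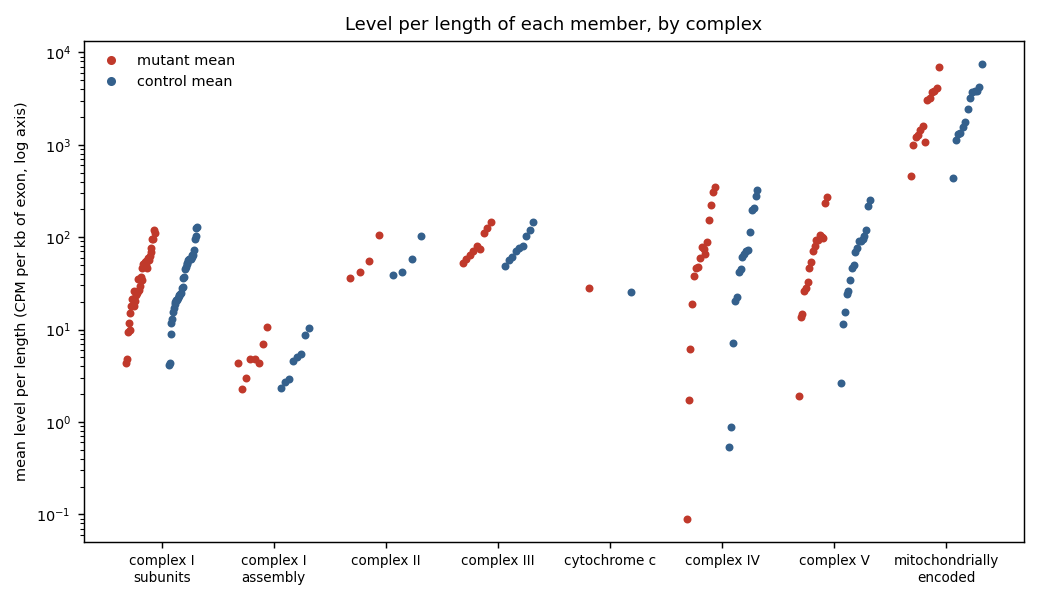
Mean level per length (CPM per kb of exon, log axis) of each gene in mutant and control libraries, by complex; each point is 1 gene, ordered by its control mean, and genes at 0 in a group are not drawn. The mitochondrially encoded genes lie above the nuclear ones and reach 7277 CPM per kb on average (mt-Co1), and the 3 lowest complex I genes are assembly factors.

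Several genes had a single library far from its group. Of the 100 genes of the set with a mean of at least 5 CPM, 11 differed at least 1.5-fold between the lowest and the highest library of a group, against 11.3% of the 11739 genes at that level in the whole table. Cox7a2l, a factor in the assembly of respiratory supercomplexes, was at 134, 131 and 131 CPM in mutant libraries and at 132, 135 and 233 CPM in control libraries. Its log2 fold change was -0.34 (adjusted p = 0.493 in edgeR's test), and -0.02 without control library 3. Ndufaf4, an assembly factor, was at 17.0, 17.4 and 16.3 CPM in mutant libraries and at 17.4, 4.52 and 5.24 CPM in control libraries. Control library 1 was level with the mutant libraries, and without it the log2 fold change was 1.80 and called (adjusted p = 0.000379), against 0.90 and an adjusted p of 0.427 with all libraries.

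Ndufa12, an accessory subunit of complex I, was at 30.8, 26.5 and 28.2 CPM in mutant libraries and at 27.1, 25.5 and 45.5 CPM in control libraries, where control library 3 was high. Its processed pseudogene Gm15920, 99.5% identical, was at 44.9, 39.3 and 43.4 CPM in mutant libraries and at 43.1, 39.3 and 20.5 CPM in control libraries, where control library 3 was low. The sums were 75.8, 65.9 and 71.8 CPM in mutant libraries and 70.0, 64.6 and 65.8 CPM in control libraries, and no library stood apart.

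**Figure D5:**
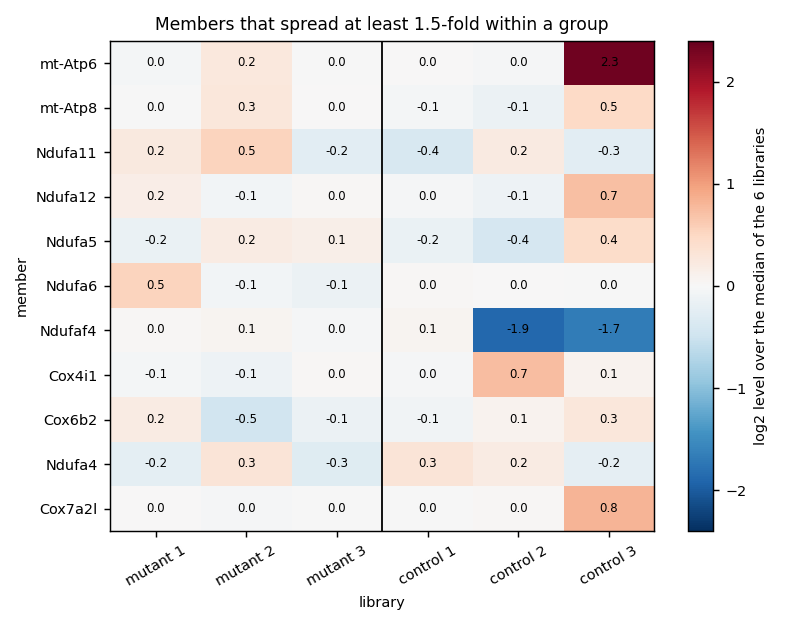
Log2 level in each library relative to the median of the 6 libraries, for the 11 genes that spread at least 1.5-fold within a group. Single control libraries stand out for mt-Atp6, Cox4i1, Cox7a2l and Ndufa12, and control libraries 2 and 3 lie low for Ndufaf4.

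Genes that work beside the complexes were taken from lists of related functions. Outside the set itself, 167 of these genes were tested, of which 6 were called higher and 6 lower, or 7.19% against 14.4% of all genes. Complex IV assembly factors (0 of 21 called, median log2 fold change -0.02), mitochondrial DNA maintenance and transcription (0 of 18, median -0.07) and mitochondrial RNA processing (0 of 17, median -0.02) had no called gene, nor had the 4 complex II and 6 complex III assembly factors, in edgeR's test. At an unadjusted p under 0.05, the first of these lists had 3 genes higher and 2 lower, the second 3 lower, the third 1 higher and 2 lower, and the complex III factors 1 lower. DESeq2 called 1 complex IV assembly factor higher and no other gene of these 5 lists, and limma-voom called none. In the tricarboxylic acid cycle 1 of 19 genes was called, Pdha1 of the pyruvate dehydrogenase complex, with a log2 fold change of -0.15. Among assembly factors, Tmem126b of complex I was at -0.29 and Atpaf2 of ATP synthase at -0.24, and Coq9 of coenzyme Q synthesis at -0.28, all called lower. Slc25a5, an ADP/ATP carrier, was at 504, 504 and 505 CPM in mutant libraries and at 435, 442 and 457 CPM in control libraries, a log2 fold change of 0.18 ± 0.031 (SE, adjusted p = 0.00695 in edgeR's test). Opa1, which shapes the inner membrane, was called higher at 0.16.

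In the short list of supercomplex and hypoxia-linked genes, 2 of 5 tested were called higher (40.0%, against 7.56% of all genes tested). The lowest log2 fold change of the list, -0.34, was that of Cox7a2l, a gene of the set itself. Higd1b, of a family named for induction by hypoxia, was at 56.8, 60.1 and 57.3 CPM in mutant libraries and at 44.7, 42.5 and 44.4 CPM in control libraries, a log2 fold change of 0.41 ± 0.045 (SE, adjusted p = 0.00096 in edgeR's test). Ndufa4l2, a relative of Ndufa4 known as a target of hypoxia-inducible factor, was at 71.3, 72.7 and 80.3 CPM in mutant libraries and at 61.3, 61.0 and 55.8 CPM in control libraries, a log2 fold change of 0.33 ± 0.061 (SE, adjusted p = 0.00969). In both genes each mutant library was above each control library, as for Cox4i2, and both are known from brain pericytes too. Higd1a (0.05) and Higd2a (-0.08) were not called.

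Among regulators of mitochondrial biogenesis 2 of 15 genes were called higher and 2 lower (26.7% called, against 14.4% of all genes tested). Hif1a, a hypoxia-inducible factor, was at 229, 234 and 249 CPM in mutant libraries and at 171, 176 and 169 CPM in control libraries, a log2 fold change of 0.46 ± 0.042 (SE, adjusted p = 0.000347 in edgeR's test). Epas1, which encodes the related factor HIF-2 alpha, was at 1368, 1365 and 1510 CPM in mutant libraries and at 1899, 1984 and 1911 CPM in control libraries, a log2 fold change of -0.45 ± 0.046 (SE, adjusted p = 0.000623). The messages of the pair thus differed in opposite directions. Pprc1 (0.23, called higher) and Ppard (-0.20, called lower) were the other called regulators, and the coactivator Ppargc1a was low, at 1.55 to 1.98 CPM in mutant libraries and at 2.11 to 2.27 CPM in control libraries, and not called.

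Promoters of the nuclear-encoded genes were read from RefSeq on GRCm38, as 300 bases from 250 before to 50 after each annotated start. Of 94 symbols 77 matched, with 82 promoters; Cox4i2 and Cox4i1 were not among them. The promoter of Ndufb5, the called lower gene with the largest change, and that of Ndufa8, also called lower, are given, with capitals at matches of the motifs searched.
Ndufb5, chr3:32736813-32737112, plus strand: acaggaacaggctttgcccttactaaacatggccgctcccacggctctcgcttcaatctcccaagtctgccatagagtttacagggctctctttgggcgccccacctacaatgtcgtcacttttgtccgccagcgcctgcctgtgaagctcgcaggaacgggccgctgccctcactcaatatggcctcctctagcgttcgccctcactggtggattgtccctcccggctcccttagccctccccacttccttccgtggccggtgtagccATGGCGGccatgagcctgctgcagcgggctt
Ndufa8, chr2:36049289-36049588, minus strand: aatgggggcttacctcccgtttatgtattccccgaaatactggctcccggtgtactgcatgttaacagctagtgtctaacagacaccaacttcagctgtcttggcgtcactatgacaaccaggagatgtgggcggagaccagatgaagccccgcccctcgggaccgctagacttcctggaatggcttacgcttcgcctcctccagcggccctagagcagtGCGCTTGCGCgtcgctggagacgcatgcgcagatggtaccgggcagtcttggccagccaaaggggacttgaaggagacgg
The capitals mark the YY1 motif ATGGCGG in the first and the NRF1 motif (GCGCA, any base, GCGC), read on the opposite strand, in the second. NRF1 is a factor known for nuclear genes of the respiratory chain. Searched on both strands, its motif was found in 24.4% of the 82 promoters and in 6.38% of the 21262 promoters of protein-coding genes. The GABPA motif CCGGAAG was found in 22.0% and in 11.6% of all, and the YY1 motif in 15.9% and in 5.24%. The hypoxia response core ACGTG was found in 25.6% of the 82 and in 20.9% of all, and the RBPJ core TGGGAA in 19.5% and in 24.5%. Of the genes called in the mutant comparison with a promoter in the table, Cox6b1 held the RBPJ core, at 250 bases before the start, and Ndufb5, Ndufs5, Ndufa8, Cox5a, Atp5c1 and Ndufaf7 held none in these windows.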

How the data were processed

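The authors deposited a gene table of estimated counts, which are whole and carry no normalization, and a table with the count of valid reads per library. Per the submitters' processing notes, edgeR, StringTie 1.3.4, HISAT2, FastQC 0.10.1 and cutadapt 1.10 were used, and the build named is GRCm39. The sources used here do not give the annotation, or whether counting used the strand. All 55450 identifiers matched GENCODE M21.

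The test, planned for raw counts, was run on the deposited estimates: edgeR 4.0.16 in R 4.3.3, filterByExpr, TMM scaling, robust quasi-likelihood F test over 19549 genes with group as the term, and Benjamini-Hochberg adjustment. The SE is the log2 fold change over the square root of F. CPM use TMM library sizes. The test was also run on simulated data, with counts drawn for each gene on its own. Those data lack the steps of about 4 and any division of reads between copies, so these features were not checked. Within a group, the mean chi-square between 2 libraries was 10.8 to 14.8 times that of sampling noise, so none were merged.

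Copies were found with BLAST among annotated transcripts (at least 95% identity over 100 bases and 80% of the copy). Genes were named by rule: every called gene, all mitochondrial genes, isoform sets, core subunits, the 3 highest and lowest levels per complex, and up to 3 called genes per list in each direction; 1 gene that this rule names is not reported here or plotted by name. The members and lists were chosen with earlier results of these data known. Alternatives were RLE or no scaling factors, scaling without mitochondrial genes, other filters, counts divided by 4, a replicate block, each library left out, DESeq2 1.42.0, limma 3.58.1 and, chosen after seeing the data, copies added and mt-Atp6 left out of the sum. Replicate numbers did not pair the libraries.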

Additional observations from a re-analysis of the deposited data

How the results depend on the processing

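Cox4i2 and Ndufb5 were called under all 16 alternatives, with log2 fold changes of 0.71 to 0.81 and of -0.42 to -0.36, and Ndufs5 under all of them but the one with copies added (0.20, adjusted p = 0.15; range of adjusted p 1.97e-05 to 0.15). The number of nuclear-encoded genes called higher was 2 with library size alone and 8 with the stricter filter of 5 CPM in 3 libraries, against 4. Uqcrb of complex III, not called in edgeR's main fit (adjusted p = 0.0637), was called higher with the stricter filter and with counts divided by 4. Labels number the replicates in both groups, but same-numbered libraries did not deviate together (r of -0.0169, 0.011 and 0.0266). With the replicate number as a block, 1106 genes were called higher and 953 lower, 2 nuclear-encoded genes lower, 2 mitochondrial genes lower and 1 gene of the other lists lower, and Atp5g1 was called higher (adjusted p = 0.0298). DESeq2 called 10 genes of the other lists higher, against 6. The mt-Co1 call was lost with RLE factors, the stricter filter, counts divided by 4, the block and DESeq2. That of Cox5a was lost with library size alone, the block and limma-voom, and that of Cox6b1 with library size alone and the block. Ndufaf7 lost its call with the block and limma-voom, and Ndufa8 and mt-Nd4 theirs with the block. Leaving out 1 library gave 807 to 1125 genes called lower in all (1335 with all libraries), 2 to 5 nuclear-encoded genes higher, 1 to 4 lower, 0 to 3 mitochondrial genes lower and 1 to 9 genes of the other lists lower, in fits with fewer samples.

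Signs turned for 13 uncalled genes. For mt-Atp6, at -1.16 with all libraries, this came without control library 3, where its level was highest, and the other 12 were near 0, where the cause was not tested. Sdhb was at 0.0047 with RLE factors, 0.0047 unfiltered, 0.0050 with the stricter filter, 0.00040 with counts divided by 4, 0.0053 with copies added and 0.0048 in DESeq2. mt-Co3 was at 0.0016 with RLE factors, 0.0015 unfiltered, 0.0023 with the stricter filter and 0.0016 in DESeq2. mt-Atp8 was at 0.0014 with the block and 0.00041 in limma-voom, and Sdhd at -0.0010 with library size alone. With 1 library left out, Sdhb ranged from -0.027 to 0.029, mt-Co3 from -0.081 to 0.080, mt-Atp8 from -0.13 to 0.20, Sdhd from -0.045 to 0.056, Atp5o from -0.015 to 0.072, Ndufaf2 from -0.055 to 0.20 and Ndufv2 from -0.012 to 0.079. Under the same alternatives Uqcr10 ranged from -0.029 to 0.024, mt-Atp6 from -1.53 to 0.08, mt-Co2 from -0.14 to 0.10, Atp5g3 from -0.00088 to 0.058, Uqcrh from -0.028 to 0.15 and Ndufs3 from -0.0055 to 0.15. Precision is limited by 3 libraries a group from pooled RNA and, for low genes, by the number of read pairs. Whether the differences lie in the RNA of cells or in the mixture of cells was not tested, and sums over genes carry no test.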

Other observations

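The processed pseudogene Gm6969, 98.0% identical to Cox7a2l, was at 21.4, 21.02 and 23.6 CPM in mutant libraries and at 32.3, 32.4 and 31.1 CPM in control libraries. Its log2 fold change was -0.54 ± 0.064 (SE, adjusted p = 0.0013 in edgeR's test), while Cox7a2l itself was level in 5 of the 6 libraries. Among complex IV assembly factors, Coa7 was at 7.96, 15.9 and 17.5 CPM in mutant libraries and at 18.8, 18.2 and 18.6 CPM in control libraries, with mutant library 1 apart. Pet117 was at 0.012, 6.29 and 7.46 CPM in mutant libraries and at 6.63, 4.86 and 5.67 CPM in control libraries, again with mutant library 1 apart. These genes were chosen after their values were seen.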
